A study of Mus musculus with 15 samples.

Results

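The genes described here encode ligands, receptors, Smad proteins, binding proteins and regulators of transforming growth factor-beta (TGF-beta), bone morphogenetic protein (BMP) and activin signalling in the mouse ovary. They were chosen by symbol, as *Bmp*, *Bmpr*, *Gdf*, *Tgfb*, *Inha* or *Inhb*, *Acvr*, *Smad*, *Ltbp*, *Fst*, *Smurf* and *Tgif* genes, with *Gdf9* and *Inhba* left out. The array named 49 such genes among 12254 genes in all. Whole ovaries of *Foxl2*-null (*Foxl2*-/-), heterozygous (*Foxl2*+/-) and wild-type (*Foxl2*+/+) females were compared on the day of birth, with 3 arrays per genotype, and at 7 days postnatum (7 dpn), with 2 arrays per genotype. *Foxl2* encodes a forkhead transcription factor of granulosa cells, the somatic cells around the oocyte, and the null allele is carried in the germ line, so that every cell of the animal lacks the gene. The labels give the strain as NIHS-BC, and the study's methods describe a mixed background that includes NIH-Swiss/BC. Newborn ovaries came from individual mice, whereas each 7 dpn array held RNA pooled from several mice. The age field of the 7 dpn samples reads birth, while their titles and developmental stage give 7 dpn, and the latter was used.

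TGF-beta family ligands are secreted dimers that bring together type II and type I serine/threonine kinase receptors. The activated receptors phosphorylate receptor-regulated Smads, which enter the nucleus with Smad4, while inhibitory Smads and the ubiquitin ligase Smurf1 restrain the signal. Follistatin (*Fst*) binds and blocks activins, and latent TGF-beta binding proteins (*Ltbp*) hold TGF-beta in the extracellular matrix. *Bmp4*, *Bmp5*, *Bmpr1a*, *Tgfbr1*, *Acvr2a*, *Smad7* and *Inhbb* were not analysed here. In the ovary, the oocyte secretes *Bmp15*, and granulosa cells make inhibin alpha (*Inha*), whose protein pairs with an activin beta subunit to form inhibin, an activin antagonist.

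Each value below is the normalized log2 ratio of the ovary RNA over a common mouse reference RNA, 1 probe per gene, so that levels can be set between arrays but not between genes. Of the 49 genes, 46 were well above background on all 15 arrays. *Gdf3* was so on only 2 arrays and *Acvr1b* on 14, and the *Smad3* spot was an outlier, and left out, on 7 dpn wild-type replicate 1. Differences are log2 fold changes with their standard error (SE) from 1 limma fit over all 41006 probes and 15 arrays, and the threshold for a call was 0.05 after Benjamini-Hochberg adjustment across every probe. Since the arrays measured whole ovaries, fewer cells of a type and less RNA per cell cannot be told apart.

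Several newborn wild-type arrays stood apart from their group. Newborn wild-type replicate 1 correlated at r = 0.912 to 0.940 with the 7 dpn arrays over all probes, but at 0.911 and 0.895 with newborn wild-type replicates 2 and 3. The latter correlated at 0.959 with each other and at 0.843 to 0.885 with the 7 dpn arrays. With the newborn heterozygous and null arrays, replicate 1 correlated at a mean of 0.933 and 0.918. Replicate 2 did so at 0.913 and 0.914 and replicate 3 at 0.897 and 0.904, so replicate 1 was the closest to the other newborn genotypes. Replicate 1 was also close to the 7 dpn arrays in 5 adipose genes, whose mean log2 ratio was 2.82 in it, 2.24 to 2.96 at 7 dpn and 0.32 or less in all other newborn ovaries. The mean log2 ratio of 4 skeletal muscle genes was 1.12 in replicate 2, 0.18 in replicate 3, and at most -0.28 on all other arrays. *Acta1*, the actin of skeletal muscle, read 3.74 and 1.40 in replicates 2 and 3 and -1.99 in replicate 1. *Ckm* (1.01) and *Tnnt3* (0.46) were also high in replicate 2 but at 0.19 and -0.18 in replicate 3 barely passed the other arrays, and *Myog* was high in neither (-0.73 and -0.70). Counts of members called against newborn wild-type ovaries are therefore given with and without these arrays, as are the values that turn on them. Without replicates 2 and 3 the wild-type arm is 1 array, which the fit assumes to vary like the other groups, and it is the array that resembled the 7 dpn ones. The *Foxl2* probe read between -0.36 and -0.20 on every array and did not separate the genotypes, so it gives no check of the labels.

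At 7 dpn, *Foxl2*-null ovaries had lower levels of 8 members and a higher level of 1 than wild-type ovaries. The called genes were *Bmp3*, *Inha*, *Fst*, *Bmp15*, *Gdf1*, *Gdf7*, *Ltbp4* and *Tgfb2* on the lower side and *Fstl3*, which encodes another activin-binding protein, on the higher side. These 9 are 18.4% of the members, beside 5.53% of all probes called in the same comparison (2.76% lower and 2.77% higher). In newborn ovaries 4 members were called (8.16%, beside 1.67% of all probes, 0.622% lower and 1.05% higher), with *Bmp3*, *Fst* and *Smad3* lower and *Fstl3* higher in null ovaries. The median log2 fold change of the 49 members was -0.01 at 7 dpn and -0.02 in newborns, beside 0.01 for all probes at both ages, so the median of the list lay close to that of all probes. Among the 48 members measured on all arrays, 7 dpn null arrays all lay below the wild-type arrays for 19 and above them for 10, while 20.8% and 26.8% of all probes did so. At an unadjusted p under 0.05, 14 members (28.6%) passed at 7 dpn and 11 (22.4%) in newborns, beside 17.4% and 14.1% of all probes. Without 7 dpn null replicate 2, *Bmp3*, *Fst*, *Inha* and *Fstl3* were the 4 members called at 7 dpn, beside 1.88% of all probes. In newborns 2 (*Bmp3* and *Fst*) were called once null replicate 2 was left out, beside 0.698% of all probes. Leaving out wild-type replicate 1 gave 7, beside 7.06% of all probes called in that setting, the added ones being *Bmp15* (-0.36), *Smad6* (0.44) and *Tgif1* (0.26). Leaving out replicates 2 and 3 gave 5 (*Bmp3*, *Fst*, *Smad3*, *Bmp15* and *Inha*, all lower), beside 1.41% of all probes.

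**Figure D1:**
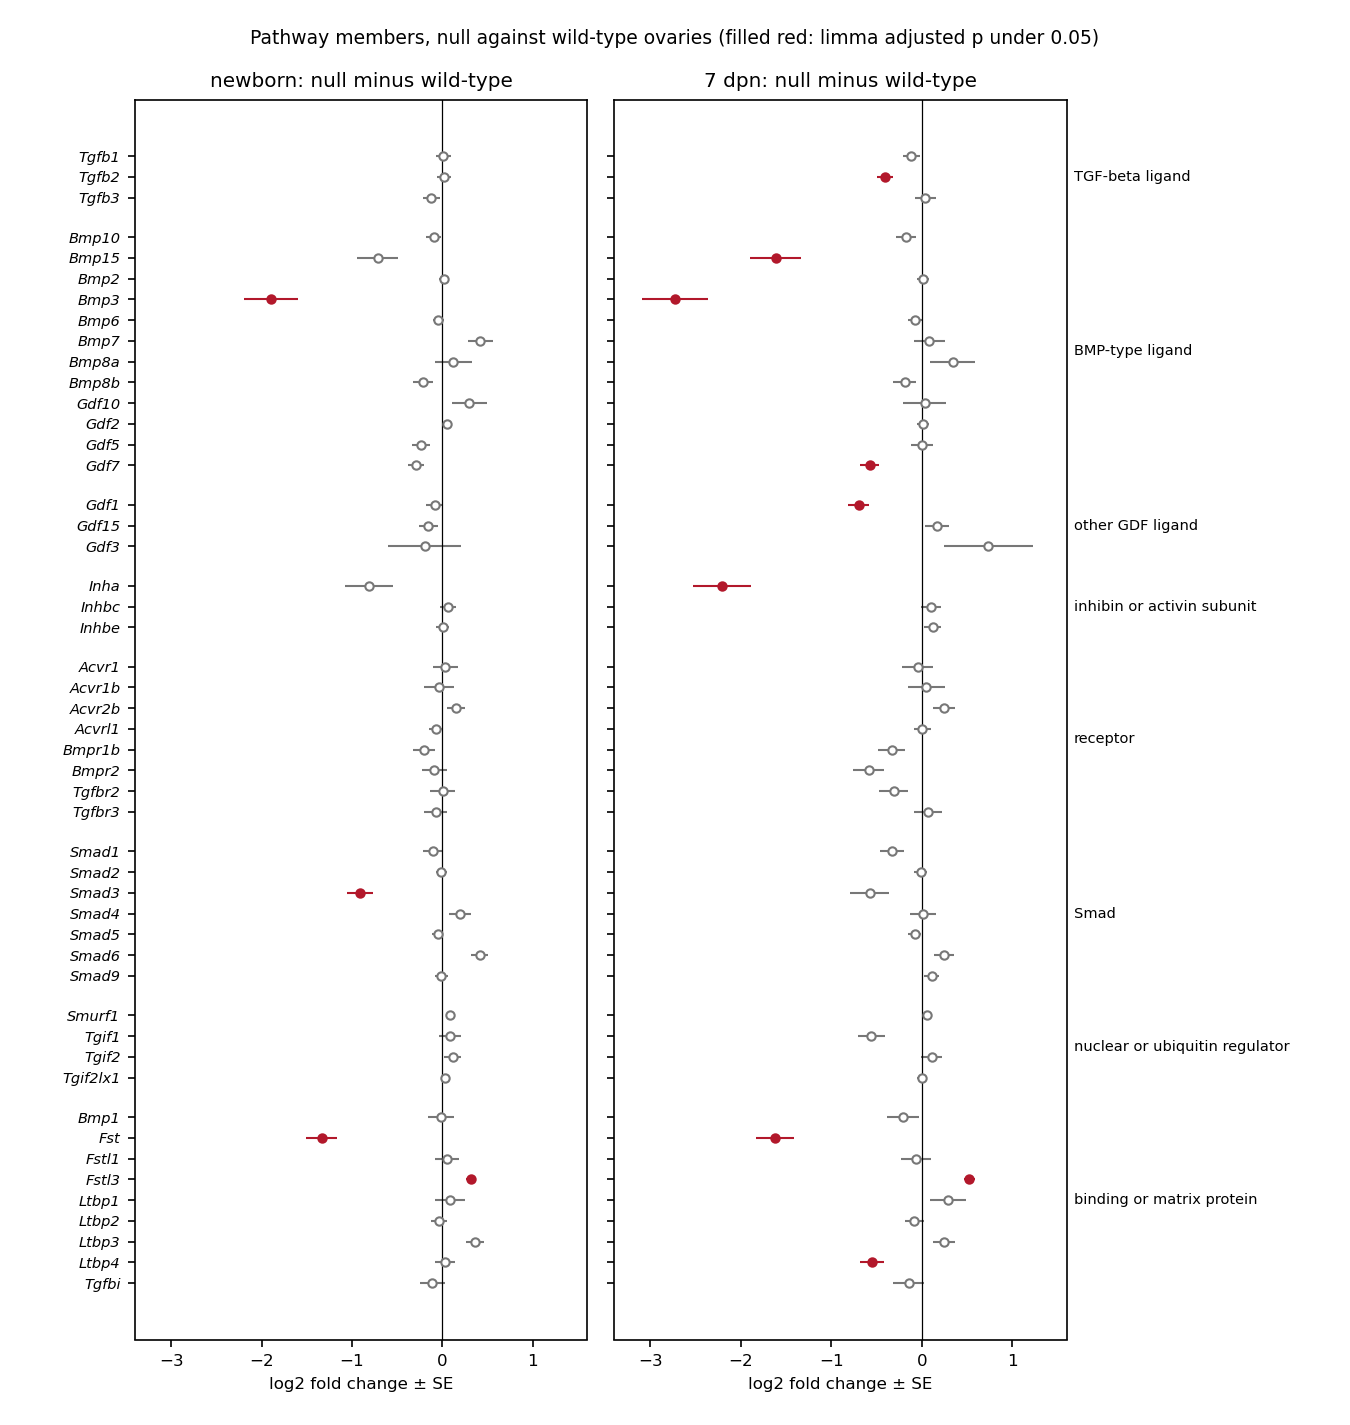
Log2 fold change of null minus wild-type ovaries (x axis, with its SE) for the 49 members, newborn at left and 7 dpn at right, grouped by role. Filled red points passed an adjusted p of 0.05 in limma: 4 in newborns and 9 at 7 dpn, while most other members lay close to 0.

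Among the binding proteins, follistatin showed the steadiest fall. Its log2 ratios were 1.66, 1.44 and 1.82 in newborn wild-type, 0.64, 0.73 and 0.84 in heterozygous and -0.08, 0.65 and 0.35 in null ovaries. At 7 dpn they were 1.89 and 1.56 in wild-type, 0.85 and 0.60 in heterozygous and 0.15 and 0.04 in null ovaries. All null arrays lay below all wild-type arrays at both ages, and the heterozygous arrays below the wild-type ones. *Fst* was 2.52-fold lower in newborn null than wild-type ovaries (log2 fold change -1.33, SE 0.17, adjusted p = 0.00292) and 3.09-fold lower at 7 dpn (-1.63, SE 0.21, adjusted p = 0.00126). In newborns its difference was the same size without wild-type replicate 1 (-1.32) and with it as the lone wild-type array (-1.36).

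*Fstl3*, a follistatin-like protein that also binds activin, moved the other way and by less. Newborn null ovaries read 0.10, 0.01 and -0.01, against -0.31, -0.23 and -0.28 in wild-type and -0.29, -0.26 and -0.30 in heterozygous ovaries. The 7 dpn null arrays read 0.21 and 0.33, against -0.32 and -0.19 in wild-type and -0.17 and -0.17 in heterozygous ovaries. No null array overlapped with either of the other genotypes. The difference from wild-type was 0.31 in newborns (SE 0.05, adjusted p = 0.0141) and 0.53 at 7 dpn (SE 0.06, adjusted p = 0.00093), and that from heterozygous ovaries 0.32 (adjusted p = 0.0298) and 0.44 (adjusted p = 0.00475). *Fstl3* was the 1 member called against both other genotypes at both ages with all arrays. Its newborn call against heterozygous ovaries held in 14 of 26 alternatives and was lost on leaving out any 1 newborn null or heterozygous array. Against newborn wild-type ovaries the call was kept in 22 of 26, and was lost with the ovary channel alone, the series values, without newborn null replicate 2 and with newborn wild-type replicates 2 and 3 both left out. At 7 dpn the call against wild-type was lost with the ovary channel alone (adjusted p = 0.232), and that against heterozygous ovaries with the ovary channel alone, with the arrays of 1 age and without null replicate 2. The newborn difference from wild-type was 0.29 without wild-type replicate 1 (adjusted p = 0.0153), and 0.35 and not called with that array as the lone wild-type (adjusted p = 0.0801).

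The matrix-bound members were less uniform. *Ltbp4* read 1.49 and 1.96 in 7 dpn wild-type, 1.73 and 1.64 in heterozygous and 1.22 and 1.12 in null ovaries, a fall of 0.55 on the log2 scale from wild-type to null (SE 0.13, adjusted p = 0.0365). A second, dimmer *Ltbp4* probe gave -0.03 in the same comparison (adjusted p = 0.919), so the 2 probes disagreed. The call held in 14 of 25 alternatives, and the difference was -0.32 without 7 dpn wild-type replicate 2 (adjusted p = 0.198). *Ltbp3* read -0.33, -0.13 and -0.18 in newborn null and -0.62, -0.52 and -0.57 in wild-type ovaries, and -0.22 and -0.15 against -0.65 and -0.23 at 7 dpn. The null arrays were above the wild-type arrays at both ages, and the differences missed the threshold (0.36 in newborns, adjusted p = 0.133, and 0.25 at 7 dpn, adjusted p = 0.341). *Ltbp1* read -0.59 and -0.76 in 7 dpn wild-type, -0.43 and -0.23 in heterozygous and -0.42 and -0.36 in null ovaries, where the null and heterozygous arrays overlapped. *Ltbp1*, *Ltbp2*, *Fstl1*, the collagen propeptide protease *Bmp1* and the TGF-beta-induced matrix protein *Tgfbi* were not called between any genotypes. Their null minus wild-type values ran from -0.21 (*Bmp1* at 7 dpn) to 0.29 (*Ltbp1* at 7 dpn).

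*Bmp3*, a BMP family member known to oppose osteogenic BMP signalling, had the largest genotype difference of the 49 genes in the main fit. Newborn wild-type ovaries read 2.49, 1.11 and 2.20, heterozygous ovaries 0.63, 0.43 and 0.38, and null ovaries -0.15, 0.15 and 0.11. At 7 dpn the values were 2.35 and 2.56 in wild-type, 0.72 and -0.01 in heterozygous and -0.38 and -0.16 in null ovaries. At both ages all heterozygous arrays lay between the wild-type and the null arrays, and closer to the null ones. Null ovaries were 3.71-fold below wild-type at birth (-1.89, SE 0.30, adjusted p = 0.0101) and 6.63-fold below at 7 dpn (-2.73, SE 0.37, adjusted p = 0.00175). The newborn difference was -1.62 without wild-type replicate 1 (adjusted p = 0.00993) and -2.45 with it as the lone wild-type array. With the authors' series values it was -0.82 and not called (adjusted p = 0.198), and with normexp -0.82 and called (adjusted p = 0.00711). The 7 dpn difference was called in all 25 alternatives, which ran from -2.99 to -1.51, with -1.51 under normexp and -1.55 with the series values. Under normexp and with the series values *Inha* fell by more at 7 dpn, since its difference ran from -3.67 to -2.01 over all 25 alternatives.

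*Bmp15*, the oocyte-derived ligand that acts on granulosa cells, separated by age as well as genotype. At 7 dpn it read 2.15 and 1.91 in wild-type, 2.10 and 1.94 in heterozygous and 0.50 and 0.32 in null ovaries. Wild-type and heterozygous arrays overlapped, and null arrays lay far below both. The fall in null ovaries was 3.07-fold against wild-type (-1.62, SE 0.28, adjusted p = 0.00673) and 3.06-fold against heterozygous ovaries (-1.61, SE 0.28, adjusted p = 0.0128). The difference between heterozygous and wild-type was -0.01, with a 95% interval from -0.62 to 0.61. Newborn heterozygous ovaries read 0.01, 0.08 and -0.01 and null ovaries 0.18, 0.05 and 0.14, while the newborn wild-type arrays read 1.55, 0.45 and 0.52, with the high value in replicate 1. The newborn null difference of -0.72 was not called with all arrays (adjusted p = 0.185). It was -0.36 without replicate 1 (adjusted p = 0.0333) where it was called, and -1.43 with that array as the lone wild-type. At 7 dpn the call against wild-type was lost without null replicate 2 (adjusted p = 0.0665). That against heterozygous ovaries was kept in 21 of 25 alternatives and lost on leaving out any 1 of the 4 arrays compared (adjusted p up to 0.125).

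Markers of several cell types were set beside these genes. The mean log2 ratio of 6 oocyte genes measured on all arrays was 2.31 to 2.49 in 7 dpn null, 2.67 to 2.79 in heterozygous and 2.87 to 2.89 in wild-type ovaries. Without *Oosp1*, the means of the other 5 were 2.77 to 2.96 in null, 2.87 to 2.95 in heterozygous and 2.99 to 3.08 in wild-type ovaries, so that null and heterozygous arrays overlapped. Of 8 oocyte markers tested at 7 dpn (*Zp2* gave no value), *Oosp1* was the 1 called lower in null than wild-type ovaries at 7 dpn. The mean of 7 granulosa genes was 0.06 to 0.11 in 7 dpn null, 0.77 to 0.92 in heterozygous and 1.23 to 1.54 in wild-type ovaries, and 4 of the 7 were called lower in the null. Of 5 theca and steroidogenic genes, *Cyp11a1*, *Hsd3b1* and *Cyp17a1* were called lower, with a list mean of -0.11 to 0.19 in null and 1.54 to 2.13 in wild-type ovaries. Of 4 Sertoli genes *Sox9* was the 1 called, and it was higher, with a list mean of 1.62 to 1.82 in null and 0.96 to 1.25 in wild-type ovaries. *Cldn11* and *Dmrt1* overlapped between these genotypes. Of 5 genes of duct epithelium *Pax8* and *Krt18* were called higher and *Cdh1* lower. Of 4 endothelial genes *Cd34* was the 1 called, and it was lower, while *Pecam1*, *Cdh5* and *Tek* were not called. The part of these marker shifts in the falls of *Bmp15* and *Inha* was not tested. In newborns the mean of the granulosa genes was -0.07 to 0.01 in null and 0.31 to 0.91 in wild-type ovaries, that of the Sertoli genes 0.81 to 1.13 and 0.11 to 0.59, and that of the oocyte genes 2.43 to 2.46 and 2.57 to 2.58. Without *Oosp1* the newborn oocyte means were 2.93 to 2.97 in null, inside the wild-type range of 2.85 to 3.04. *Sox9* was called higher and *Hsd3b1* lower in newborn null than wild-type ovaries, no granulosa or oocyte marker was called, and the part of these shifts in the newborn results was not tested.

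**Figure D2:**
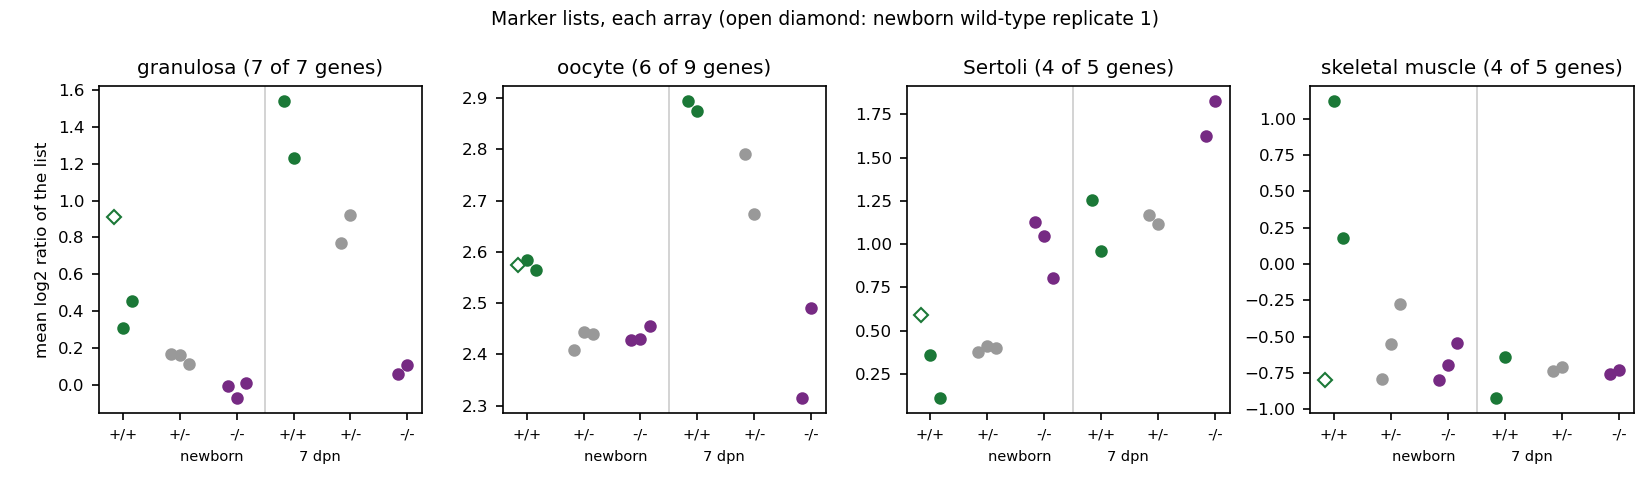
Mean log2 ratio (ovary over reference, y axis) of 4 marker lists on each array, by genotype and age; the open diamond is newborn wild-type replicate 1. The granulosa list lies between 0.06 and 0.11 in 7 dpn null ovaries and at 1.23 or above in 7 dpn wild-type ovaries, and the muscle list is at 1.12 and 0.18 in newborn wild-type replicates 2 and 3 and at most -0.28 on the other arrays.

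*Gdf7*, a BMP-type ligand best known from the developing nervous system, read 0.83 and 0.66 in 7 dpn wild-type, 0.29 and 0.44 in heterozygous and 0.28 and 0.06 in null ovaries. It was lower in null than wild-type ovaries (-0.57, SE 0.11, adjusted p = 0.00932), and the newborn value of -0.29 missed the threshold (adjusted p = 0.152). The 7 dpn call was kept in 20 of 25 alternatives, which ran from -0.77 to -0.25, and was lost with the ovary channel alone, the series values or the arrays of 1 age, and without null replicate 2 or wild-type replicate 1. *Bmp7* read 2.29 and 2.52 in 7 dpn null and 1.73 and 1.90 in heterozygous ovaries, a difference of 0.59 that was not called (adjusted p = 0.131). The 7 dpn wild-type ovaries, at 2.04 and 2.60, overlapped the null ones (0.08, adjusted p = 0.893). Newborn null arrays read 2.19, 2.37 and 2.56, all above the newborn wild-type arrays at 2.07, 1.89 and 1.92, with heterozygous arrays at 2.10, 1.99 and 2.11. In newborns *Bmp7* had the largest rise of the members in null against wild-type ovaries, 0.42, also not called (adjusted p = 0.201). *Bmp2* and *Bmp6* hardly differed between genotypes: their null minus wild-type values lay between -0.08 and 0.02 at both ages. The remaining BMP-type ligands (*Bmp8a*, *Bmp8b*, *Bmp10*, *Gdf2*, *Gdf5* and *Gdf10*) were not called between genotypes, with null minus wild-type values from -0.24 (*Gdf5*, newborn) to 0.34 (*Bmp8a*, 7 dpn). *Bmp8a* read -0.53 and -1.10 in 7 dpn null and -1.15 and -1.16 in wild-type ovaries, so that 1 null array set its value. *Gdf10* read 3.00, 2.95 and 2.84 in newborn null and 2.38, 2.71 and 2.80 in wild-type ovaries, a difference of 0.30 (adjusted p = 0.543). *Bmp8a* and *Bmp8b* are close paralogs, and a probe may not tell them apart.

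Inhibin alpha was lower in 7 dpn null than wild-type ovaries. *Inha* read 4.85 and 5.20 in 7 dpn wild-type, 4.07 and 4.15 in heterozygous and 2.63 and 3.01 in null ovaries. The 3 genotypes did not overlap. Null ovaries were 4.61-fold below wild-type (-2.20, SE 0.32, adjusted p = 0.0027), whereas the differences between null and heterozygous (-1.29, adjusted p = 0.0754) and between heterozygous and wild-type ovaries (-0.91, adjusted p = 0.408) were not called. Newborn null ovaries read 2.60, 2.38 and 2.37 and heterozygous ovaries 2.20, 2.47 and 2.26, which overlapped. The newborn wild-type arrays read 4.03, 2.81 and 2.95, with replicate 1 again the high one. The newborn null difference was -0.81 (adjusted p = 0.193), -0.43 without replicate 1 (adjusted p = 0.111) and -1.58 with replicate 1 as the lone wild-type array (adjusted p = 0.00401). *Inhbc* and *Inhbe*, activin beta subunits known mainly from liver, stayed within 0.12 of wild-type in null ovaries at both ages.

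Of the 3 TGF-beta ligands, *Tgfb2* was lower in 7 dpn null ovaries. It read 0.66 and 0.84 in wild-type, 0.96 and 0.76 in heterozygous and 0.38 and 0.31 in null ovaries. The null arrays lay below both other genotypes, which overlapped each other. The fall was 0.41 against wild-type (SE 0.09, adjusted p = 0.0238) and 0.51 against heterozygous ovaries (SE 0.09, adjusted p = 0.0135) on the log2 scale. The call against wild-type was lost without either null array or without wild-type replicate 2 (-0.31), and with the series values, the ovary channel alone, the arrays of 1 age or the replicate block. The call against heterozygous ovaries was kept in 20 of 25 alternatives, and was lost with the ovary channel alone, with the arrays of 1 age, without either null array and without heterozygous replicate 1 (adjusted p up to 0.197). In newborns its null minus wild-type value was 0.02. *Tgfb1* and *Tgfb3* were not called between genotypes, with null minus wild-type values between -0.12 and 0.04.

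*Gdf1*, a ligand that works with Nodal in left-right patterning, read 0.76 and 0.64 in 7 dpn wild-type, 0.42 and 0.41 in heterozygous and 0.05 and -0.04 in null ovaries. Null ovaries were lower than wild-type (-0.70, SE 0.12, adjusted p = 0.00581). A second *Gdf1* probe gave -0.66 (adjusted p = 0.0166). The call was lost with the ovary channel alone (-0.71, adjusted p = 0.124) and without 7 dpn null replicate 2 (-0.65, adjusted p = 0.062). The *Gdf1* transcript can also carry the ceramide synthase gene *Cers1*, and which of them the probes read was not tested. *Gdf15*, a stress-induced ligand, and the dim *Gdf3* were not called in any comparison.

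**Figure D3:**
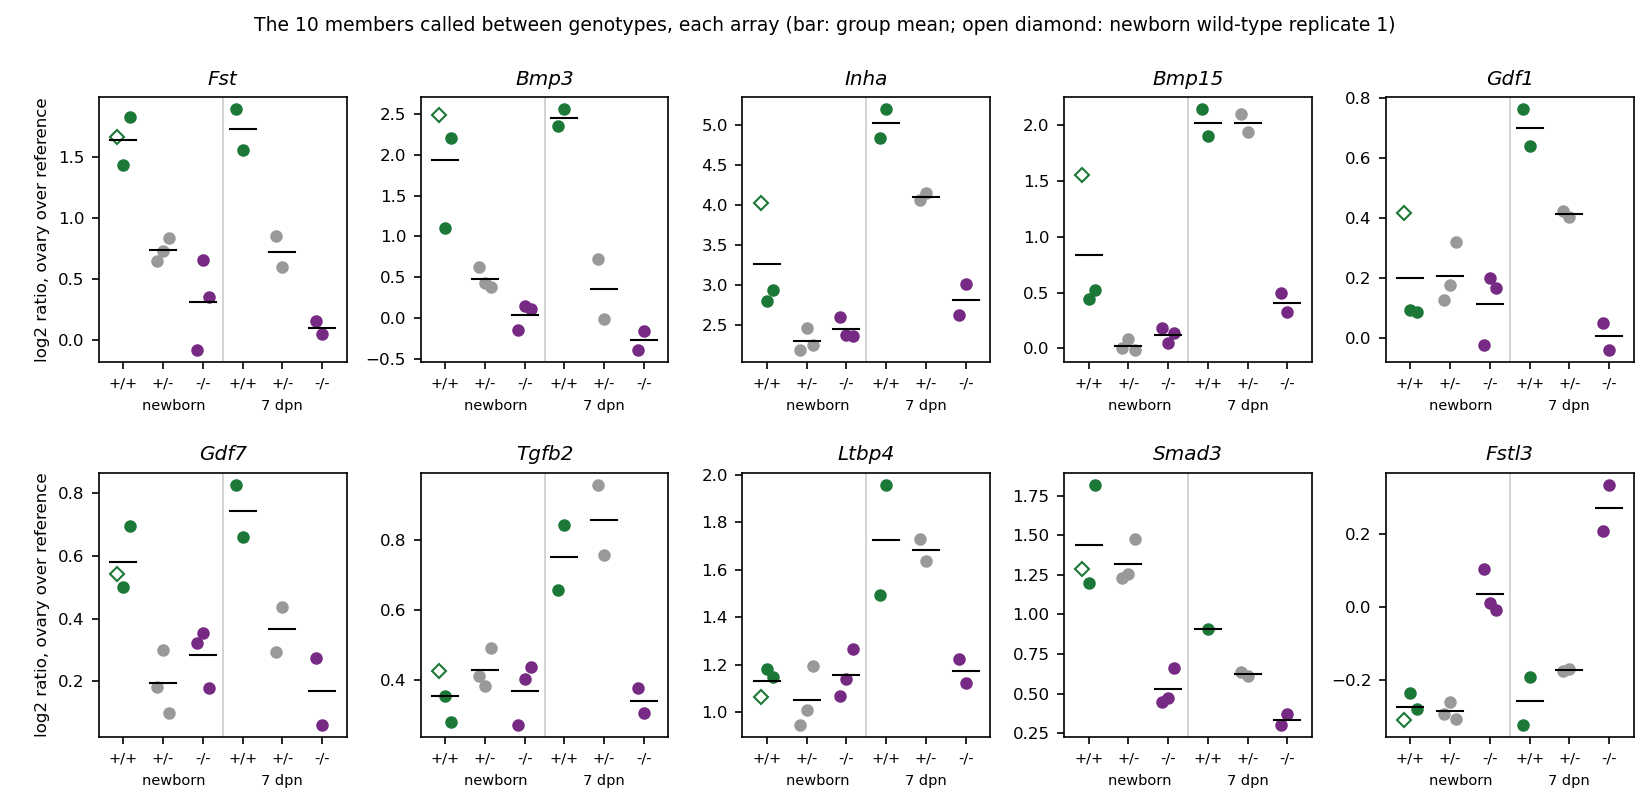
Normalized log2 ratio (ovary over reference, y axis) on each array for the 10 members called between genotypes at either age; bars are group means of 3 newborn or 2 arrays at 7 dpn (for *Smad3* in 7 dpn wild-type the bar is its 1 measured array), and the open diamond is newborn wild-type replicate 1. *Fst* and *Bmp3* are low in heterozygous ovaries at both ages, *Bmp15* and *Tgfb2* are low at 7 dpn only in null ovaries, and *Fstl3* is higher in null ovaries than in the other genotypes at both ages.

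None of the 8 receptors was called between genotypes at either age. The lowest null minus wild-type value was that of *Bmpr2*, the BMP type II receptor, at 7 dpn. It read 0.53 and 0.65 in wild-type, 0.40 and -0.05 in heterozygous and -0.10 and 0.10 in null ovaries. The difference was -0.59 (SE 0.17, adjusted p = 0.0773) with a 95% interval from -0.97 to -0.21, although the arrays did not overlap. *Bmpr1b*, the type I receptor expressed in granulosa cells, was at -0.33 and the type II TGF-beta receptor *Tgfbr2* at -0.31. The others (*Acvr1*, *Acvr1b*, *Acvr2b*, *Acvrl1* and the co-receptor *Tgfbr3*) lay between -0.05 and 0.24 at 7 dpn. In newborns the receptors ran from -0.20 (*Bmpr1b*) to 0.15 (*Acvr2b*).

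Among the Smads, *Smad3*, a receptor-regulated Smad of the TGF-beta and activin branch, was lower in newborn null ovaries. It read 0.45, 0.47 and 0.66 in null, 1.23, 1.25 and 1.47 in heterozygous and 1.29, 1.20 and 1.82 in wild-type ovaries. Null arrays lay below all others, and heterozygous and wild-type arrays overlapped. The null minus heterozygous difference was -0.79, which was not called in the main fit but was with the replicate block. The fall against wild-type was 1.88-fold (-0.91, SE 0.14, adjusted p = 0.0131). A second, dimmer *Smad3* probe gave 0.00 (SE 0.05, adjusted p = 0.982), so the 2 probes disagreed here as well, and the call was lost with the median over probes (-0.45, adjusted p = 0.097) and without newborn null replicate 2 (-0.88, adjusted p = 0.0645). At 7 dpn, where 1 wild-type array was left, *Smad3* read 0.91 in wild-type, 0.64 and 0.61 in heterozygous and 0.30 and 0.37 in null ovaries, and was not called (-0.57, adjusted p = 0.186).

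*Smad6*, an inhibitory Smad of the BMP branch, read -0.59, -0.70 and -0.64 in newborn wild-type, -0.55, -0.40 and -0.49 in heterozygous and -0.39, -0.07 and -0.24 in null ovaries. The genotypes did not overlap, and the null minus wild-type value of 0.41 missed the threshold (adjusted p = 0.056). At 7 dpn the heterozygous arrays were the highest, at 0.46 and 0.26, above null (0.00 and 0.03) and wild-type (-0.10 and -0.37) ovaries, again with no call (0.59 for heterozygous minus wild-type, adjusted p = 0.116). *Smad1*, *Smad2*, *Smad4*, *Smad5* and *Smad9* were not called between genotypes. Their null minus wild-type values ran from -0.10 to 0.19 in newborns and from -0.33 to 0.11 at 7 dpn.

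The transcriptional co-repressor *Tgif1* read 0.63 and 0.48 in 7 dpn wild-type, 0.23 and 0.22 in heterozygous and 0.03 and -0.04 in null ovaries. Its difference of -0.56 missed the threshold (SE 0.15, adjusted p = 0.0573). *Tgif2*, the X-linked *Tgif2lx1*, which has close copies, and *Smurf1* were not called between genotypes. Of these 3, *Tgif2* had the highest null minus wild-type value, 0.11 at both ages.

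The heterozygous ovaries ask how far loss of 1 *Foxl2* copy reaches. No member was called between heterozygous and wild-type ovaries at either age, where 0.0293% of all probes were called in newborns and 0.0463% at 7 dpn. At an unadjusted p under 0.05 there were 7 members (14.3%) in newborns, beside 13.4% of all probes, and 11 (22.4%) at 7 dpn, beside 8.64%. *Bmp3* came closest at 7 dpn (-2.10, SE 0.37, adjusted p = 0.0893) and *Fst* in newborns (-0.91, SE 0.17, adjusted p = 0.0857). At 7 dpn both genes were called lower with normexp, beside 0.244% of all probes. The 7 dpn *Bmp3* difference was also called without newborn wild-type replicate 1 (0.293% of all probes) and without newborn wild-type replicate 2 (0.0683%). Without newborn wild-type replicate 1, 6 members were called in newborn heterozygous ovaries, where 6.42% of all probes then were. *Bmp3* (-1.17), *Fst* (-0.89), *Inha* (-0.57), *Bmp15* (-0.46) and *Gdf7* (-0.40) were lower and *Ltbp2* (0.32) higher. Without replicates 2 and 3 the called members were *Bmp3*, *Bmp15* and *Inha*, all lower, beside 0.471% of all probes.

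A stepwise order, with every null array below every heterozygous array and these below every wild-type array, held at 7 dpn for 8 of the 48 members measured on all arrays. They were *Bmp3*, *Inha*, *Fst*, *Gdf1*, *Gdf7*, *Tgif1*, *Bmp8b* and *Bmp10*, against 3.41% of all probes with that order. The rising order held for *Fstl3* alone (4.27% of all probes). In newborns the falling order held for *Bmp3* (0.378% of all probes) and the rising order for *Smad6* (0.542%). Between null and heterozygous ovaries, *Bmp15*, *Tgfb2* and *Fstl3* were called at 7 dpn (2.2% of all probes), and *Fstl3* alone in newborns (0.398%). The 7 dpn count of 3 became 0 to 2 when a null or a heterozygous 7 dpn array was left out (0.598% to 1.02% of all probes). It was 6 without newborn wild-type replicate 1 (3.11%) and 6 on leaving out either 7 dpn wild-type array (2.35%).

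Between birth and 7 dpn, 8 members rose in wild-type ovaries and none was called lower, beside 8.61% of all probes called in either direction and 4.8% called higher. *Inha* rose most (1.76, SE 0.29, adjusted p = 0.0066), followed by *Bmp15* (1.19, adjusted p = 0.017), *Tgif1* (0.60, adjusted p = 0.0222), *Ltbp4* (0.59, adjusted p = 0.0144), *Ltbp2* (0.52, adjusted p = 0.00972), *Gdf1* (0.50, adjusted p = 0.0161), *Smad6* (0.41, adjusted p = 0.0335) and *Tgfb2* (0.40, adjusted p = 0.0151). *Inha*, *Bmp15*, *Ltbp4*, *Gdf1* and *Tgfb2* were also lower in null than wild-type ovaries at 7 dpn, a comparison that shares the 7 dpn wild-type arrays. All newborn and all 7 dpn arrays were extracted from their images on different days and the tissue was pooled at 7 dpn only, so age cannot be told apart from day or pooling. The second *Ltbp4* probe gave -0.11 for age (adjusted p = 0.411), opposite to the first. The *Smad6* call was kept in 14 of 25 alternatives, whose values ran from 0.04 to 0.61. Among others, it was lost with normexp, the ovary channel alone, the series values and the replicate block. With newborn wild-type replicate 1 as the lone newborn array no member was called (0.39% of all probes were), and the differences of *Inha* and *Bmp15* were 0.99 and 0.47. The count was 11 without newborn wild-type replicate 1, of which *Bmp8b* and *Smad9* were lower, beside 18.7% of all probes. It was 4 without replicate 2 (3.89%), 3 without replicate 3 (4.27%), 5 without 7 dpn wild-type replicate 1 (4.26%) and 1 without 7 dpn wild-type replicate 2 (3.66%), all higher. With the authors' series values 10 were called, of which *Gdf5*, *Smad3* and *Smad4* were lower, beside 16.3% of all probes.

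Whether the loss of *Foxl2* acted differently at the 2 ages was tested as the difference between the null effects. With all arrays no member was called (0.188% of all probes were), and 8 (16.3%) had an unadjusted p under 0.05, beside 10.5% of all probes. The difference was -1.39 for *Inha* (SE 0.41, adjusted p = 0.23), 0.93 for the dim *Gdf3* (adjusted p = 0.685) and -0.90 for *Bmp15* (SE 0.36, adjusted p = 0.397). Without newborn wild-type replicate 1, *Inha* (-1.78, adjusted p = 0.00353), *Bmp15* (-1.26, adjusted p = 0.00207), *Tgif1* (-0.82, adjusted p = 0.0033) and *Gdf1* (-0.72, adjusted p = 0.0131) were called, beside 3.2% of all probes. Without 7 dpn wild-type replicate 1, *Ltbp4* was the 1 called (0.405% of all probes). Without newborn wild-type replicates 2 and 3 none was (0.0757%), although *Bmp15* was called for the heterozygous effect (1.52, adjusted p = 0.0146, beside 0.0415% of all probes). For the heterozygous effect no member was called with all arrays (0.00244% of all probes), and 4 (8.16%) had an unadjusted p under 0.05, beside 7.45% of all probes.

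**Figure D4:**
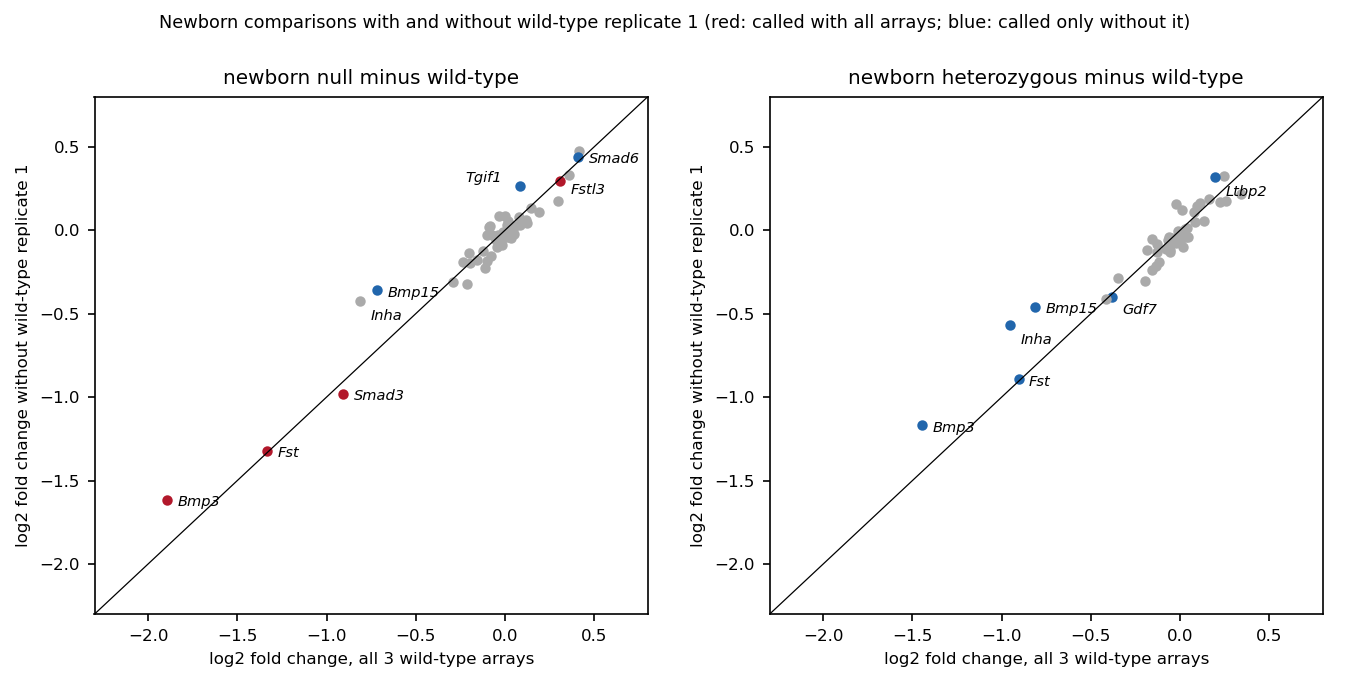
Log2 fold changes of the 49 members in newborn null (left) and heterozygous (right) against wild-type ovaries, with all 3 wild-type arrays (x axis) and without wild-type replicate 1 (y axis); the line marks equal values. *Inha*, *Bmp15* and *Bmp3* lie above the line, with smaller falls once replicate 1 is left out, and *Fst*, *Smad3* and *Fstl3* lie close to it.

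Other genes of the pathway came from a second list of antagonists, co-receptors, intracellular regulators and targets, of which 44 of 56 were measured. In null against wild-type ovaries, 1 was called lower and 1 higher in newborns, beside 1.67% of all probes, and 2 lower and 1 higher at 7 dpn, beside 5.53% of all probes. The 3 of 44 at 7 dpn are a share near that of all probes, and the median log2 fold change of the list was 0.03 and 0.04. *Bmper*, a BMP-binding regulator of endothelial cells, fell in newborn null ovaries (-0.79, adjusted p = 0.0148), and *Id2*, a BMP target gene, rose there (0.66, adjusted p = 0.00692). At 7 dpn null ovaries had lower *Amh*, the granulosa and Sertoli cell hormone (-0.86, adjusted p = 0.0039), and lower *Pmepa1*, a TGF-beta target that dampens Smad signalling (-0.86, adjusted p = 0.00711). The BMP antagonist *Nbl1* was higher (0.45, adjusted p = 0.0435). Against heterozygous ovaries at 7 dpn, *Bmper* (-1.17, adjusted p = 0.00397), *Amh* (-0.67, adjusted p = 0.0243) and the BMP target *Id3* (-0.68, adjusted p = 0.0389) were called lower, beside 2.2% of all probes. None of the 5 receptors and co-receptors on the list was called between genotypes, *Amhr2* included.

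The promoter windows of 4 called members are printed because *Inha*, *Bmp15* and *Tgfb2* fell and *Fstl3* rose in 7 dpn null ovaries. Each runs from 250 bases before to 50 bases after the RefSeq start on GRCm38.p6. They lie at chr1:75507359-75507658 on the plus strand (*Inha*), chrX:6320675-6320974 on the minus strand (*Bmp15*), chr1:186705940-186706239 on the minus strand (*Tgfb2*) and chr10:79777024-79777323 on the plus strand (*Fstl3*). Capitals mark the E-box CANNTG, bound by helix-loop-helix factors, and the TATA element TATAAA on either strand.
Inha: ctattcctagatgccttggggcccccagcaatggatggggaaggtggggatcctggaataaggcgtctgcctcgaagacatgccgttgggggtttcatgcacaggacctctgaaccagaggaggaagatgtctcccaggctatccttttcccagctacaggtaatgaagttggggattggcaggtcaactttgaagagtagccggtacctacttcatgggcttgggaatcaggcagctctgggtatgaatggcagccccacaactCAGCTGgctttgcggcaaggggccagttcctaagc
Bmp15: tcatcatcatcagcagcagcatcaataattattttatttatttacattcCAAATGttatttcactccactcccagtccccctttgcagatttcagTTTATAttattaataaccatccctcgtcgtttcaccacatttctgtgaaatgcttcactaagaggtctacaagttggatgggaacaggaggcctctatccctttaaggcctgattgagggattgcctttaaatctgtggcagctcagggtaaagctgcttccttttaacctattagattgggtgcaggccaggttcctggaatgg
Tgfb2: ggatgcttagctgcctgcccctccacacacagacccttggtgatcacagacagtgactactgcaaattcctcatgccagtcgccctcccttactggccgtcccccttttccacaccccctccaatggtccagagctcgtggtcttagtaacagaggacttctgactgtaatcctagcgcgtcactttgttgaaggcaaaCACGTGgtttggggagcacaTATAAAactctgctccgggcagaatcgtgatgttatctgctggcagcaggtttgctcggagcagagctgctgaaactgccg
Fstl3: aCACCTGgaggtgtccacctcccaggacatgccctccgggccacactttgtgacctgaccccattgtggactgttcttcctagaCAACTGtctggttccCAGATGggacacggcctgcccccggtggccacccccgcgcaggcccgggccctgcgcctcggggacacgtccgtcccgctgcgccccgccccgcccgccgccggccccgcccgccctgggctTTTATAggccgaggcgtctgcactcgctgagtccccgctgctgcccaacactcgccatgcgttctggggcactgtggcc

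The TATA element begins at base -31 of *Tgfb2*, counted from the start site, and lies on the strand of the gene. The matches at -29 of *Fstl3* and -155 of *Bmp15* read TTTATA, so TATAAA lies on the opposite strand there. *Fstl3* has 3 E-boxes, and the other 3 genes 1 each. The 36 members with a promoter sequence have 49 windows, since some have several start sites. Of these windows 31 (63.3%) held CANNTG and 5 (10.2%) held TATAAA, beside 72.3% and 13.6% of all 32851 windows. The forkhead core TGTTTAC was in none of the 49 (3.65% of all windows). The NR5A half-site AAGGTCA (4.72%) was found in 1, of *Tgif1*, and the Smad-binding palindrome GTCTAGAC (0.213%) in 1, of *Smad6*. All motifs were searched on both strands, and a match or its absence describes only these letters.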

How the data were processed

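Ovary RNA (Cy3) and universal mouse reference RNA (Cy5) were hybridized to 15 Agilent mouse developmental arrays, with no dye swap. The deposited intensity values are the scanner software's background-subtracted, dye-normalized signals of both channels (Agilent Feature Extraction, per the file headers). The submitters' protocol names linear amplification, whereas the methods describe the 7 dpn RNA as unamplified and count 4 samples at that age, where 6 carry such labels. The authors normalized each array by loess (span 0.01) against a virtual array of probe means.

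That normalization was repeated in R 4.3.3. Control spots and outlier spots were dropped, spots of a probe were averaged, and log2 ratios of ovary over reference were taken. RefSeq accessions gave 15294 of 20657 named probes a current symbol. The brightest probe stood for a gene (39 genes had 1 probe, 10 had 2). Group means were fitted in limma 3.58.1 over all probes. The fit was also run on simulated data with independent noise and no array that stood apart. That run therefore does not cover the spread of the newborn wild-type arrays. Figures were drawn with matplotlib. Between 93.2% and 96.5% of spots per array were well above background, and arrays of a group correlated at a median of 0.949. The small number of arrays limits the precision.

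The members and gene lists were chosen with earlier results of these data known. A gene of the second pathway list is not reported here and was left out of its counts. Named were members called in any genotype or effect-by-age comparison, the 5 largest rises and falls per age in null against wild-type among 48 members well above background on every array of at least 1 group, and a set by role. Per-array values are given for the first and second of these, and differences or ranges for most members named by role alone. Alternatives were normexp background correction (offset 50), median centring, loess span 0.3, a local mean, the ovary channel alone, the deposited series values (taken to log2, with scale and centring partly unknown), a filter on dim probes, a replicate block, arrays of one age, leaving out each array, the median over probes and a threshold of 0.01. Leaving out newborn wild-type replicates 2 and 3 and crossing the 7 dpn replicate numbers were added after seeing the data. In newborns same-numbered arrays deviated together (r from -0.17 to 0.14) about as little as differently numbered ones (-0.18 to 0.21). At 7 dpn, with 2 arrays per group, the correlations of same-numbered and differently numbered arrays mirror each other by construction. With so few arrays the check cannot decide whether the numbers pair samples.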

Additional observations from a re-analysis of the deposited data

How the results depend on the processing

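Counts of members called moved with several choices, and the cause was not tested. The share of all probes called in the same setting is in brackets, except at 0.01 and for the ranges over single arrays. In newborn null against wild-type ovaries the count of 4 (1.67%) became 2 with the series values (1.17%) and 1 at an adjusted p under 0.01. For newborn heterozygous against wild-type (0, 0.0293%) it was 1 with normexp (0.283%). For newborn null against heterozygous (1, 0.398%) it was 2 with normexp (0.7%) and 2 with median centring (0.28%). It was 0 with arrays of one age (0.112%) and 0 at 0.01. At 7 dpn, null against wild-type (9, 5.53%) gave 4 with the ovary channel alone (2.13%). Heterozygous against wild-type (0, 0.0463%) gave 2 with normexp (0.244%). Null against heterozygous (3, 2.2%) gave 5 with median centring (1.86%), 1 with the ovary channel alone (0.751%) and 5 with the series values (1.87%). It gave 1 with arrays of one age (0.971%) and 1 at 0.01. The age count of 8 (8.61%) was 4 with the ovary channel alone (2.38%) and 2 at 0.01. Leaving out single arrays gave 2 to 7 for newborn null against wild-type, 0 to 6 for heterozygous against wild-type and 0 to 2 for null against heterozygous. At 7 dpn the same comparisons gave 4 to 11, 0 to 2 and 0 to 6, the null effect by age 0 to 4, the heterozygous one 0 to 1 and age 1 to 11.

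Rerun gene by gene were the calls and the heterozygous minus wild-type differences of called genes, and among these the values that changed sign were uncalled heterozygous minus wild-type differences. *Bmp15* at 7 dpn became 0.0168 (normexp), 0.0718 (median centring), 0.0208 (ovary channel alone) and 0.142 (series values), and ran from -0.126 to 0.113 over the fits that left out 1 array. *Ltbp4* at 7 dpn became 0.0833 (median centring), 0.0747 (ovary channel alone) and 0.148 (series values), with -0.274 to 0.191 over those fits, and in newborns 0.0171 (median centring). Newborn *Fstl3* became 0.0033 (span 0.3) and 0.0243 (newborn wild-type replicates 2 and 3 left out), with -0.0286 to 0.0092 over single arrays. Newborn *Gdf1* became -0.208 with both left out, with -0.0473 to 0.118 over single arrays. *Smad3* became 0.0521 at 7 dpn (median over probes) and in newborns 0.0774 (ovary channel alone) and 0.0313 (both left out), with -0.234 to 0.0746 over single arrays.

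With the replicate number as a replicate block, the newborn counts were 4, 0 and 1, beside 1.38%, 0.039% and 0.18% of all probes. The 7 dpn counts were 8, 0 and 3, beside 4.96%, 0.00732% and 1.91%. Both effects by age gave 0 (0.0317% for the null and 0.00732% for the heterozygous effect), and age gave 7 (5.81%). *Smad3* took the place of *Fstl3* between newborn null and heterozygous ovaries, *Tgfb2* lost its 7 dpn call against wild-type, and *Smad6* its age call. The crossed replicate block for 7 dpn heterozygous against wild-type, where same-numbered arrays correlated at -0.136, gave 0.

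The series values moved the median of all probes to 0.11 in 7 dpn null against wild-type ovaries and to -0.16 for age, and 22.2% and 80.6% of all calls were then lower. A day block was not run, since day and age cannot be told apart and each slide held 1 array. With 2 or 3 arrays a group, a difference that missed the threshold is not shown to be absent.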
